A study of Mus musculus with 20 samples.

Results

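Transfer RNAs (tRNAs) are the adaptors of protein synthesis: each carries 1 amino acid and reads codons through its anticodon, and tRNAs for the same amino acid are called an isotype. Mouse nuclear tRNAs are encoded by many genes, often in clusters and in copies with the same sequence. In small RNA libraries they appear largely as fragments, made by cleavage in the anticodon loop or in the other arms, and tRNAs for glycine, glutamate, valine and lysine are known as frequent sources of such fragments. The table counts reads per tRNA gene and gives no position within the tRNA, so fragments from either end and whole tRNAs cannot be told apart here.

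Nuclear tRNAs were taken as the entries of the UCSC tRNA class of a table of 2127 small RNA features. Members were the 339 of 388 such entries with a mean raw count of at least 10 over 20 libraries. Mouse skin of the inbred strain FVB/N was measured in 4 groups of 5 libraries. Healthy skin had received acetone, and hyperplastic skin (thickened, with no tumour), papillomas, which are benign, and malignant tumours, the cutaneous squamous cell carcinomas (cSCC), came from skin given DMBA and PMA, a mutagen and a tumour-promoting phorbol ester. Treatment and lesion change together against healthy skin and cannot be told apart. The labels give neither the age nor the sex of the mice and do not say whether biopsies came from separate mice. P-values therefore cover only the variation among the biopsies, which may be technical.

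Members were thus chosen by their mean raw count over all libraries, and the abundance of the members is a description. Of the 339 members, 317 had a mean of at least 10 in all 4 groups, 9 in 3 groups, 11 in 2 groups and 2 in 1 group. The last 22 owe their place to the groups in which they were high. Just above the limit lay chr3.tRNA28-TyrGTA, chr13.tRNA106-TyrGTA and chr3.tRNA1040-ArgACG with mean counts of 10.2, 10.9 and 10.9, and just below it chr13.tRNA72-ThrCGT, chr13.tRNA997-ArgCCG and chr7.tRNA156-IleTAT with 9.9, 9.75 and 9.55. The members covered 21 isotype labels and 48 of the 51 anticodons of the table. No entry for Ile-GAT, SeC-TCA or Ser-GGA reached the limit.

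The total count per library ranged from about 1270590 (papilloma 6) to about 10117800 (hyperplastic 7), and was lower on average in papillomas and cSCC (2659400 and 3114630) than in healthy and hyperplastic skin (5924800 and 7422330). All 339 members passed the low-count filter, so no member was left out of a test. The summed levels of marker miRNAs of other cell types moved with the groups too. Per 1000000 mature miRNA counts, the summed level of 4 striated muscle miRNAs was 15982 to 61597 in healthy skin and 1894 to 3130 in cSCC. For 4 leukocyte miRNAs it was 14776 to 22887 and 43643 to 138687, and for 6 keratinocyte miRNAs 131491 to 177459 and 61356 to 131046. Levels of 5 mesenchyme miRNAs were 72210 to 128390 and 23247 to 52016, and those of 2 endothelium miRNAs 22106 to 31193 and 10596 to 19529. None of these 5 lists overlapped between healthy skin and cSCC, while 3 erythroid miRNAs did (1884 to 5922 and 3316 to 7953). All markers of these lists were found, and each had counts in every library. The part of cell makeup in the results was not tested, and in bulk tissue fewer cells of a type cannot be told from less RNA per cell.

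Nuclear tRNA reads took a large part of every library and the largest part in hyperplastic skin. They made up 29.3% ± 4.83 (SD, n = 5) of all counts in healthy skin, 37.1% ± 6.68 in hyperplastic skin, 25.9% ± 9.07 in papillomas and 20.4% ± 2.13 in cSCC. The cSCC libraries lay between 17.8% and 23.4%, overlapping healthy skin (23.2% to 36.3%) only at its lowest library and lying below all hyperplastic libraries (29.1% to 45.9%). The total share spread most in papillomas, from 13.5% in papilloma 6 to 34.3% in papilloma 1. Set against 100 mature miRNA counts, the values were 43.9, 63.1, 38.2 and 26.7 in the same order. These shares were not tested. Mitochondrial tRNAs, counted as their own class, made up between 0.421% and 1.15% of all counts.

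**Figure D1:**
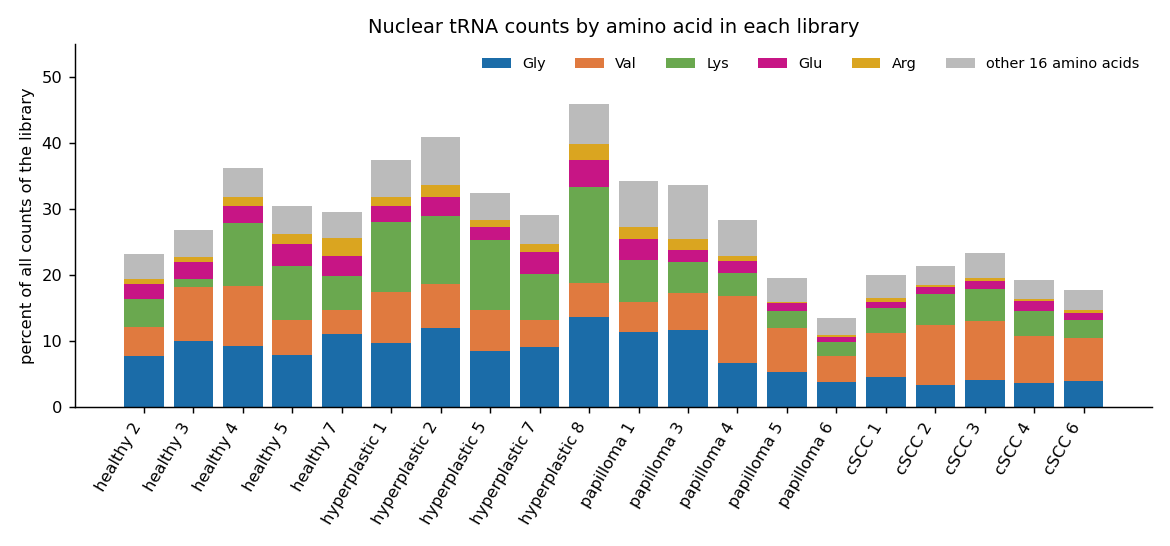
Nuclear tRNA members as a percent of all counts (y axis) in each of the 20 libraries (x axis), stacked by amino acid. The mean total is 29.3% in healthy skin and 20.4% in cSCC, and the valine block takes the largest part of the cSCC bars.

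Glycine, lysine and valine held most of these reads, with 28.9%, 23.0% and 20.2% of all member counts, 72.0% together. These are raw counts pooled over all libraries, so deeper libraries weigh more. Member counts averaged 2732870 per library in hyperplastic skin and 643794 in cSCC. By group mean share, lysine was above valine only in hyperplastic skin (28.3% and 16.2%). Glutamate followed with 8.21% and arginine with 4.18%. Counts were concentrated in few entries, since the top 10 members held 24.6% and the top 50 held 80.2%. The entry with the most reads was chr11.tRNA945-ArgCCG (chromosome 11, 106874179 to 106874252, mm9 as deposited), with a mean count of 58005. It accounts for nearly the whole arginine total, since Arg-CCG held 3.98% of all member counts. Next came chr12.tRNA790-LysCTT with 43690 and chr13.tRNA974-ValAAC with 41287. At the low end, phenylalanine, tyrosine and asparagine tRNAs each held less than 0.02% of member counts.

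Many gene copies could not be read as separate measurements. In 13 sets of 3 to 9 copies, 74 members in all, the mean counts of the copies lay within 3% of each other. Only the 114 members with a mean count of at least 1000 were searched, within each anticodon, and sets of fewer than 3 were not kept. Equal copies among the other members were not looked for. The largest was a set of 9 Gly-GCC entries with means of 30550 to 30968. The variance between copies divided by their mean, averaged over the libraries, was 0.849 to 1.62 across the sets with a median of 1.23, and ran from 0.0194 to 6.96 in single libraries. The sets were picked for their equal means, so this is a description. How the authors assigned reads that match several genes is not given in the sources used here. Counts of called entries may therefore include entries that rest on the same reads. Sums per amino acid and per anticodon do not depend on how reads were split among copies within the sum, but would depend on a split between anticodons or amino acids, which was not tested. If a read was instead counted at every copy it matches, sums and shares would grow with the number of copies. That was not tested either.

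The make-up of the tRNA reads is given next as shares, here without a test. Tests of sums scaled by the nuclear tRNA total, a setting added later, follow further below. Of all tRNA counts, valine held 20.9% ± 6.88 in healthy skin (12.7% to 30.3%), 16.2% ± 3.66 in hyperplastic skin, 25.5% ± 10.2 in papillomas and 37.5% ± 3.22 in cSCC (33.2% to 42.2%). The cSCC values lay above all healthy libraries. Glycine held 31.9% ± 5.90, 28.6% ± 2.30, 29.5% ± 4.48 and 19.5% ± 3.14 in the same order, and every cSCC library (15.6% to 23.0%) was below every healthy one (25.6% to 37.5%). Lysine was highest in hyperplastic skin, with 28.3% ± 3.90 against 18.6% ± 9.04 in healthy skin, where healthy 3 held 4.64% and the others 17.0% to 26.9%. Serine, a small class, held 0.0469% ± 0.0116 in healthy skin and 0.209% ± 0.0713 in cSCC. Every cSCC library (0.117% to 0.285%) was above every healthy one (0.0351% to 0.0648%).

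Healthy skin and cSCC were compared with edgeR's quasi-likelihood test on the whole table, with all 20 libraries in 1 model and p-values adjusted over all features (Benjamini-Hochberg, threshold 0.05). Levels below are counts per 1000000 (CPM), scaled by TMM factors, and log2 fold changes are given with their standard error (SE). The SE was derived from the test, as the absolute log2 fold change divided by the square root of its F statistic. In cSCC, 9 of the 21 amino acid sums were lower and 1 was higher, where 24.3% and 19.8% of all 1204 rows of that table were called lower and higher. The lower sums were Arg, Trp, Glu, Gly, Met, Cys, SeC(e), Leu and Gln, and the higher one was Ser. Without healthy 5 the number called fell from 10 to 6. The median log2 fold change was -0.75 over the sums and 0.12 over all rows.

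Glycine tRNAs, a main source of tRNA fragments, stood at 95840, 130870, 103154, 122934 and 133708 CPM in healthy libraries 2, 3, 4, 5 and 7. In cSCC libraries 1, 2, 3, 4 and 6 they stood at 39447, 26562, 41630, 36014 and 29391 CPM. No cSCC library reached the lowest healthy one. The log2 fold change was -1.76 (SE 0.35, edgeR adjusted p = 0.000241). Glutamate sums were 28526 to 50733 CPM in healthy skin and 7793 to 14054 in cSCC, again without overlap, with a log2 fold change of -1.83 (SE 0.40, edgeR adjusted p = 0.000584).

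Arginine fell most. Its healthy libraries held 9455, 9047, 15215, 23318 and 32308 CPM and its cSCC libraries 4529, 2984, 4286, 3212 and 2762 CPM. The groups did not overlap, although healthy skin spread widely, and the log2 fold change was -2.33 (SE 0.52, edgeR adjusted p = 0.000752). This sum is nearly all Arg-CCG, at 15769 CPM on average in healthy skin and 3226 in cSCC. Of the other arginine anticodons, Arg-ACG (211 and 72.2) and Arg-CCT (311 and 235) were lower on average. Arg-TCG (41.1 and 44.8) and Arg-TCT (48.0 and 75.0) were not. Of the 20 arginine entries 6 were called lower and 1 higher. Tryptophan tRNAs, a minor class, had 132 to 550 CPM in healthy skin and 64.0 to 91.8 in cSCC, with a log2 fold change of -1.86 (SE 0.39, edgeR adjusted p = 0.000447). With library totals alone the tryptophan ranges overlapped, at 85.1 to 494 CPM in healthy skin and 64.1 to 106 in cSCC.

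Serine moved the other way. Its tRNAs carry a long variable arm, which serine shares with leucine. Healthy libraries held 188, 123, 200, 183 and 165 CPM, and cSCC libraries 458, 487, 513, 227 and 209 CPM. All cSCC values were above the healthy ones, the libraries cSCC 4 and 6 only just. The log2 fold change was 1.14 (SE 0.34, edgeR adjusted p = 0.00885).

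Arg, Glu, Gly and Ser passed the threshold in the same direction in each of the 12 alternative settings and 10 fits without 1 library. Trp did so in all but 1 setting, in which counts were divided by the nuclear tRNA total (log2 fold change -0.80, adjusted p = 0.0888). This added setting, chosen after the values were seen, gives shares of the tRNA reads rather than levels. The size of the change depended on the scale: Gly was at -0.71, Glu at -0.77, Arg at -1.24 and Ser at 2.16 relative to the tRNA total. In that setting 6 amino acid sums were higher (Ser, Thr, His, Tyr, Val and Asp) and 3 lower (Arg, Glu and Gly), against 1 and 9 on the main scale. With scaling factors from abundant features, and likewise when only features of at least 50 CPM were tested, 3 were higher and 4 lower, and with library totals alone 3 were higher and 7 lower. The median of the 21 log2 fold changes was -0.75 on the main scale, 0.33 as shares of tRNA reads, -0.07 with factors from abundant features and -0.22 with library totals. With them Ala, Asn, Asp, Gln, Ile, Lys, Phe, Pro and Val turned from lower to higher in at least 1 of these settings.

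**Figure D2:**
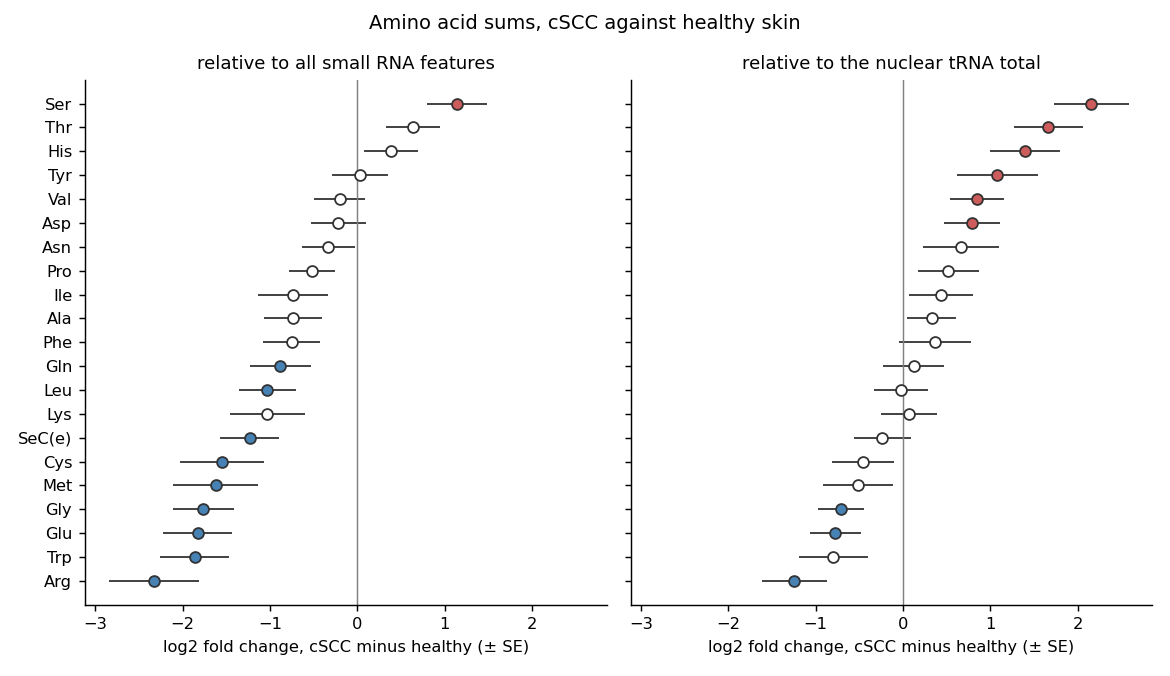
Log2 fold change of cSCC minus healthy skin (x axis, bars are SE) for the 21 amino acid sums (y axis), on the main scale (left) and as shares of the nuclear tRNA total (right). Filled points passed the threshold, red higher and blue lower: Ser is higher and Arg, Glu and Gly are lower in both panels.

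The direction of valine was not settled by these data. Val sums were 55606, 105858, 100490, 81386 and 45140 CPM in healthy skin and 56918, 72057, 89106, 71950 and 48302 CPM in cSCC, and the groups overlapped fully. Its log2 fold change was -0.20 (SE 0.29) and turned to 0.51 with factors from abundant features, 0.32 with library totals and 0.84 as a share of tRNA reads. Only the last passed the threshold (adjusted p = 0.0225). Without cSCC 6 it was 0.09. Lysine had a log2 fold change of -1.03 (SE 0.43, edgeR adjusted p = 0.0532) and turned to 0.06 as a share of tRNA reads. It passed only without healthy 2 (-1.16), healthy 3 (-1.32) or cSCC 3 (-1.19). Threonine was at 0.64 (SE 0.31, adjusted p = 0.0947) and turned to -0.30 when its most abundant gene stood for the sum.

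**Figure D3:**
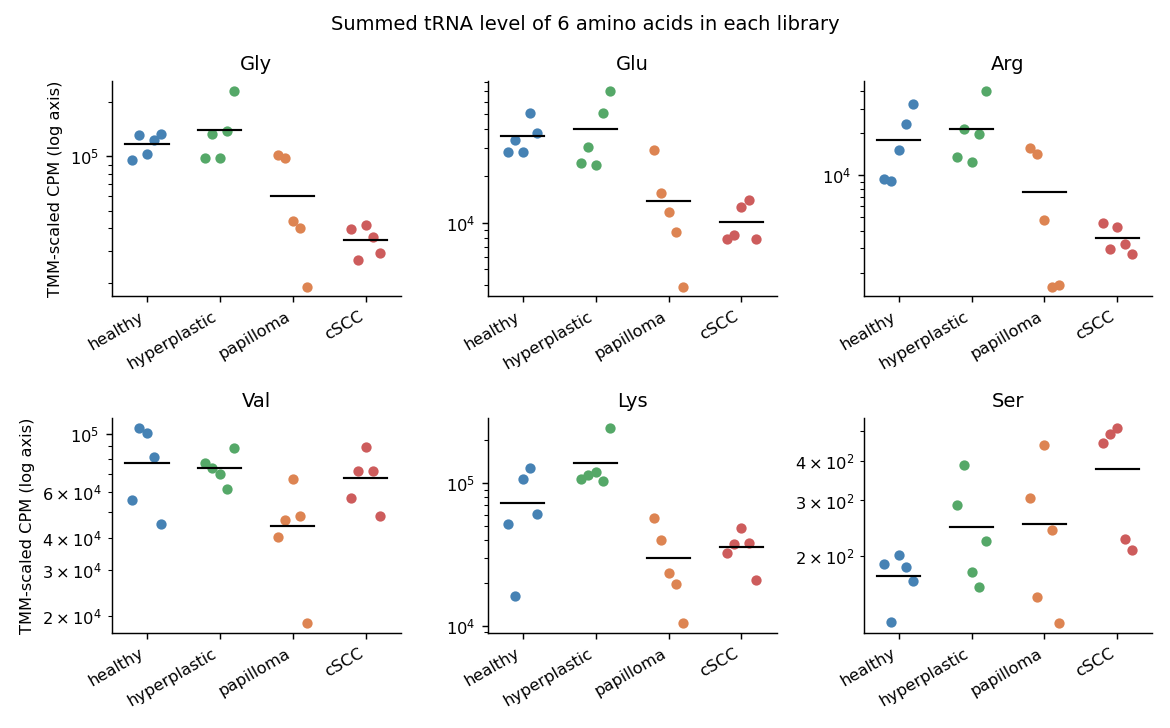
TMM-scaled CPM (log axis) of 6 amino acid sums in each of the 20 libraries by group, with a line at the mean. Glycine, glutamate and arginine are lower in all cSCC libraries than in all healthy ones, while valine overlaps.

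Among anticodon sums, 15 of 48 were lower and 4 higher in cSCC than in healthy skin, where 21.7% and 24.2% of all 1231 rows were called. The largest falls were those of Arg-CCG (log2 fold change -2.29), Gly-CCC (-1.99) and Glu-CTC (-1.74). Ser-TGA (1.72), Ser-AGA (1.45) and Thr-TGT (1.07) rose most. Thr-TGT rested in part on cSCC 2, without which its log2 fold change was 0.62 (adjusted p = 0.114). As shares of the tRNA reads 15 sums were higher and 4 lower, with factors from abundant features 10 and 6, with features of at least 50 CPM alone 10 and 5, and with library totals 9 and 12.

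Of the list of 12 anticodons known as fragment sources, edgeR called 7, all lower, where 21.7% and 24.2% of the rows were called lower and higher. The median log2 fold change was -1.17 beside 0.26 over all rows of that table. The split depended on the scale: 3 were lower (Gly-GCC, Gly-CCC and Glu-CTC) and 4 higher (Asp-GTC, His-GTG, Lys-TTT and Val-AAC) as shares of tRNA reads, 3 and 1 with factors from abundant features, 3 and 2 with features of at least 50 CPM alone, and 6 and 1 with library totals. The 7 on the main scale were Gly-GCC (-1.61), Gly-CCC, Glu-CTC, Glu-TTC (-1.33), Lys-CTT (-1.27), Met-CAT (-1.46) and SeC(e)-TCA (-1.06). Gly-GCC went from 71068 to 95570 CPM in healthy skin to 22323 to 32652 in cSCC, and Gly-CCC from 8587 to 19230 to 2645 to 3910. Among those that did not pass, Val-CAC held 42320 ± 14626 CPM (SD, n = 5) in healthy skin and 38246 ± 7970 in cSCC, and Val-AAC 28779 ± 10788 and 30725 ± 8548. Asp-GTC held 7035 ± 1461 and 6822 ± 2966, His-GTG 140 ± 40.3 and 204 ± 81.4, and Lys-TTT 14180 ± 8749 and 14290 ± 4625. Of the 10 sums with a long variable arm, 2 serine sums were higher and 2 others lower (SeC(e)-TCA and Leu-CAG), beside the same 24.2% and 21.7% of all rows. As shares of tRNA reads 5 of the 10 were higher (Ser-AGA, Ser-CGA, Ser-GCT, Ser-TGA and Leu-CAA) and 0 lower, and with factors from abundant features 4 and 0. The 4 anticodons with an intron-bearing gene had a median of 0.41 and 0 calls on the main scale, but all 4 were higher as shares of tRNA reads and 2 of them (Arg-TCT and Ile-TAT) with factors from abundant features or library totals.

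At the level of single entries, 88 of 339 members were lower and 37 higher in cSCC, where 19.6% and 24.8% of all 1522 tested features were called. The share of members called lower was 26.0% and called higher 10.9%. The split depended on the scale: 19 were higher and 96 lower with factors from miRNAs, 47 and 59 with library totals, 75 and 38 with factors from abundant features, 25 and 30 with features of at least 50 CPM alone, and 99 and 30 as shares of tRNA reads. Over all 339 members the median mean count was 205, and 114 had a mean of at least 1000. Entries called lower were abundant, with a median mean count of 4759, and 61 of the 88 had a mean of at least 1000. Entries called higher had a median mean count of 111, and 5 of the 37 had a mean of at least 1000. Chromosome 13, which carries 91 members in its tRNA clusters, held 24 of the 37 higher entries and 21 of the 88 lower ones. By isotype, 19 of 27 Gly, 15 of 20 Glu, 8 of 15 Gln and 8 of 15 Met entries were lower, while 8 of 18 Ser and 8 of 15 Thr entries were higher. Other isotypes had lower entries too, such as Cys (8 of 39), Lys (7 of 21) and Leu (7 of 26). Many Gly and Glu entries lie in the sets of nearly equal copies, so the counts of called entries are not counts of independent genes.

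**Figure D4:**
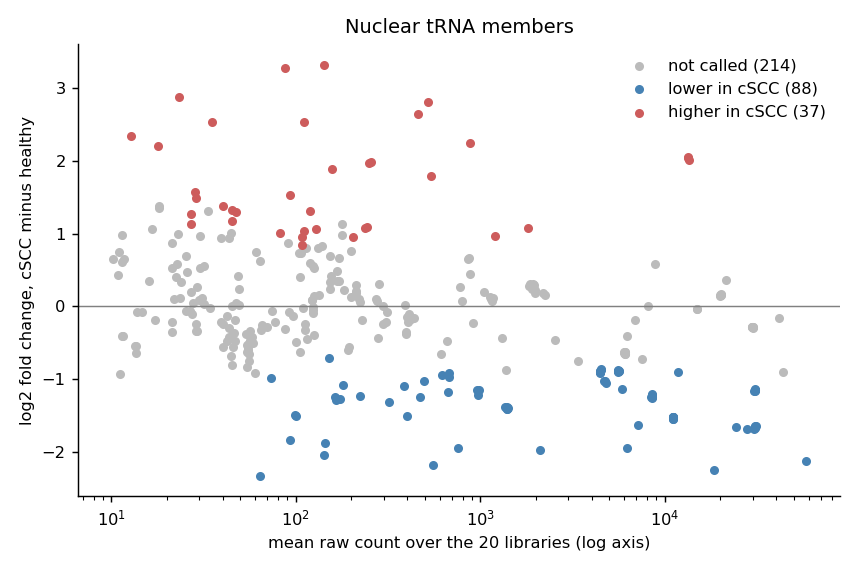
Log2 fold change of cSCC minus healthy skin (y axis) against mean raw count (x axis, log) for the 339 members. The 37 entries called higher have a median mean count of 111 and the 88 called lower one of 4759, beside 205 over all members.

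Genes of 1 anticodon did not always move together. In cSCC against healthy skin 4 of the 45 anticodons with at least 2 members had members called in each direction: Ala-TGC, Gly-CCC, Met-CAT and Trp-CCA. This was counted on the main scale only. The 5 Gly-CCC genes show this most clearly. The abundant chr3.tRNA282-GlyCCC (chromosome 3, 96115176 to 96115247) held 5614, 7746, 6866, 7059 and 8035 CPM in healthy skin and 2543, 1825, 2043, 2426 and 2106 in cSCC, a log2 fold change of -1.69 (SE 0.32). The gene chr17.tRNA113-GlyCCC went from 5648 to 1182 CPM on average, a log2 fold change of -2.26 (SE 0.46). Both fell without overlap.

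The low-count copy chr3.tRNA287-GlyCCC (chromosome 3, 96186833 to 96186904) behaved differently. It had 13, 31, 25, 31 and 21 raw counts in healthy libraries and 125, 135, 362, 107 and 40 in cSCC libraries, although the latter were shallower. Its CPM were 2.19 to 6.01 in healthy skin, 3.22 to 10.4 in hyperplastic skin, 30.5 to 76.6 in papillomas and 16.8 to 101 in cSCC. The log2 fold change in cSCC was 3.28 (SE 0.44, edgeR adjusted p = 3.28e-06). Its neighbour chr3.tRNA752-GlyCCC had 3.88 to 11.1 CPM in healthy skin and 14.7 to 103 in cSCC, with a log2 fold change of 2.53 (SE 0.41). The fifth gene, chr4.tRNA67-GlyCCC, did not pass (0.44, SE 0.36). Because the 2 rising copies are small, the Gly-CCC sum followed the 2 abundant genes.

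**Figure D5:**
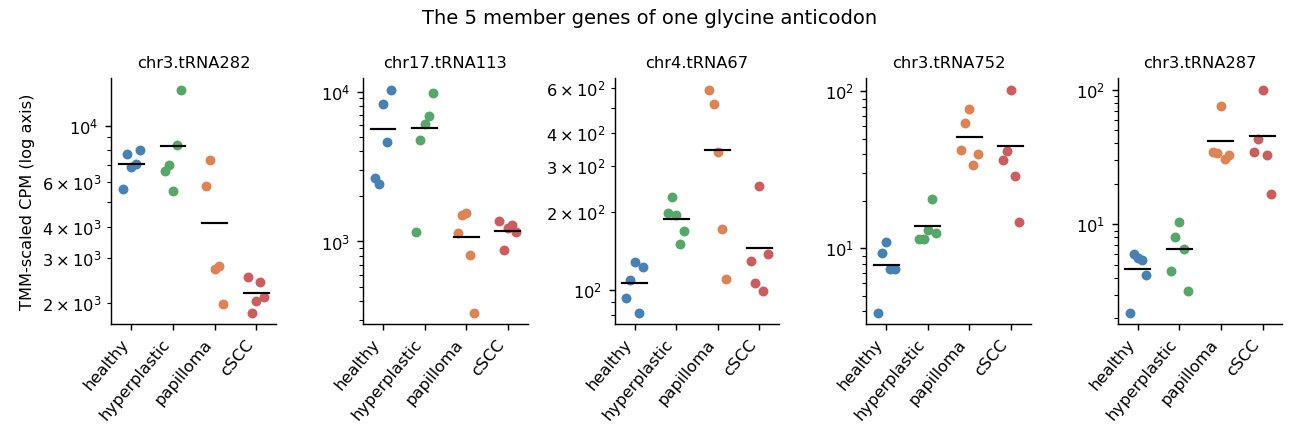
TMM-scaled CPM (log axes, a separate one per panel) of the 5 member genes of Gly-CCC in each library by group, with a line at the mean. In chr3.tRNA752 and chr3.tRNA287 all papilloma and cSCC libraries lie above all healthy ones, and in chr3.tRNA282 and chr17.tRNA113 all cSCC libraries lie below them.

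Further low-count genes on chromosome 13 were higher too. The entry chr13.tRNA73-ThrTGT rose from 4.85 to 14.0 CPM in healthy skin to 18.3 to 204 in cSCC (log2 fold change 3.32, SE 0.52). The alanine gene chr13.tRNA68-AlaTGC stood at 26.6, 21.7, 69.1, 42.0 and 24.5 CPM in healthy skin and at 136, 309, 408, 290 and 150 in cSCC (2.81, SE 0.39). For chr13.tRNA83-LysTTT the values were 13.6 to 56.0 and 98.8 to 235 CPM (2.64, SE 0.40). The groups did not overlap in any of these 3. The largest falls besides chr17.tRNA113-GlyCCC were those of 2 tryptophan genes, chr10.tRNA857-TrpCCA from 19.2 to 3.74 CPM on average (-2.33, SE 0.53) and chr11.tRNA1849-TrpCCA from 148 to 32.8 CPM (-2.18, SE 0.44).

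Of the 20 valine members edgeR called 5 higher and 0 lower in cSCC, a share close to the 24.8% of all features called higher. Among the 5, chr13.tRNA97-ValCAC, chr13.tRNA93-ValAAC and chr13.tRNA962-ValAAC had nearly equal mean counts (13488, 13395 and 13382) although they differ in anticodon, and whether they share reads was not tested. These valine genes, and the chromosome 1 glycine gene below, were chosen after their values were seen. For chr13.tRNA97-ValCAC healthy libraries held 885, 2225, 2099, 1252 and 711 CPM and cSCC libraries 3479, 8121, 9437, 4668 and 3338 CPM. Its log2 fold change was 2.02 (SE 0.38, edgeR adjusted p = 0.000202) and that of the other two 2.04 and 2.05. The abundant copy chr13.tRNA91-ValCAC was at -0.29 (SE 0.32), with 8235 CPM on average in healthy skin and 6728 in cSCC. Within Gly-GCC, chr13.tRNA77-GlyGCC, 1 of the 9 equal copies, fell by 1.64 on the log2 scale, while chr1.tRNA704-GlyGCC was at -0.04 (SE 0.30).

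Few members passed the threshold between hyperplastic and healthy skin. In 22 of the 339 members every hyperplastic library was above every healthy one and in 2 below, where 1.77% and 1.25% of all features were so. The median log2 fold change of the members was 0.40, beside 0.07 over all features, and 0.09 as shares of tRNA reads. EdgeR called 4 members, all higher, where 0.263% and 0.0657% of all features were called higher and lower, and 87 had an unadjusted p under 0.05. DESeq2 called 12 higher and 2 lower, the miRNA scaling 1 and 1. Of the amino acid and anticodon sums edgeR and DESeq2 called 0, with 6 and 11 at an unadjusted p under 0.05 by edgeR. Of all rows tested beside these sums 0.0831% and 0.0812% were called lower and 0% higher. The clearest entry was chr13.tRNA83-LysTTT, which had 19.6, 16.3, 56.0, 23.1 and 13.6 CPM in healthy skin and 132, 158, 149, 64.2 and 59.9 in hyperplastic libraries 1, 2, 5, 7 and 8. The groups did not overlap, and the log2 fold change was 2.13 (SE 0.40, edgeR adjusted p = 0.00843). It lost the call without healthy 2 or healthy 5 (adjusted p = 0.0939 and 0.0705). The value of chr13.tRNA948-ArgTCG (log2 fold change 2.70) leaned on hyperplastic 2, without which it was 1.72 (adjusted p = 0.115). The others were chr14.tRNA704-ThrTGT (1.23, from 14.7 to 34.5 CPM on average) and, at 1.46 and 9.47 CPM, chr13.tRNA89-LysTTT (2.70), a gene outside the naming rule that was chosen after its values were seen.

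The count of 4 depended on single libraries in both directions. It was 0 without healthy 2 or healthy 5, 1 without healthy 3 or hyperplastic 2, and 2 without healthy 7, hyperplastic 1 or hyperplastic 8. It rose to 7 without hyperplastic 7 (6 higher and 1 lower) and to 11 without healthy 4 (10 higher and 1 lower). The sum of Lys-TTT was 14180 ± 8749 CPM (SD, n = 5) in healthy skin and 40043 ± 10761 in hyperplastic skin without overlap, yet its log2 fold change of 1.5 did not pass (edgeR adjusted p = 0.229).

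In papillomas against healthy skin 39 members were lower and 29 higher, where 14.2% and 22.3% of all features were called. As shares of the tRNA reads 111 were higher and 4 lower, with library totals 71 and 5, with factors from abundant features 51 and 21, with features of at least 50 CPM alone 15 and 4, and with factors from miRNAs 17 and 68. Without healthy 5 the number called fell from 68 to 44, of which 23 were higher and 21 lower. Small glycine genes led the rise, chr3.tRNA287-GlyCCC with a log2 fold change of 3.15 and chr3.tRNA752-GlyCCC with 2.72, followed by chr13.tRNA73-ThrTGT with 2.56. The largest falls were those of chr17.tRNA113-GlyCCC (-2.40), chr14.tRNA359-GluTTC (-1.88) and chr9.tRNA783-ArgACG (-1.80). Marker levels moved here too: in papillomas striated muscle (2884 to 10372), mesenchyme (41780 to 51984) and endothelium (13460 to 16410) miRNAs lay below all healthy libraries, keratinocyte miRNAs (177230 to 216773) and leukocyte miRNAs (14922 to 100742) overlapped them, and papilloma 6 held the highest leukocyte level of the papillomas. Their part in the calls was not tested. Comparisons with healthy skin share the healthy libraries, so their values are not independent of each other.

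Among amino acid sums edgeR called 8 in papillomas, all lower, where 25.6% and 14.8% of the rows were called lower and higher and 9 sums had an unadjusted p under 0.05. DESeq2 called 5. Glu had a log2 fold change of -1.38, Trp -1.38, Lys -1.27, Met -1.27, Arg -1.24, Asn -0.97, Gly -0.95 and Val -0.81. All 8 overlapped between the groups, and the calls were not stable. Val turned to 0.29 and Asn to 0.27 as shares of tRNA reads. With factors from abundant features or library totals 3 sums were higher and 0 lower, with features of at least 50 CPM alone 2 and 0, as shares of tRNA reads 4 and 0, with only the 2 groups compared 1 and 1, and with the top gene in place of the sum 1 and 1. Without healthy 5, 1 sum was lower and 0 higher, and without papilloma 6, 1 was higher and 0 lower. Without papilloma 4 or papilloma 5 the number was 2, and without healthy 3 or healthy 4 it was 5. Papilloma 6 had the highest TMM factor with amino acid sums (2.04, and 1.30 for features), which lowers its scaled levels. Its lysine sum was 10358 CPM on the main scale and 21112 with library totals. Among anticodon sums 7 were lower and 4 higher, where 19.1% and 23.6% of the rows were called. Ile-TAT, an intron-bearing class, had 26.3 to 42.9 CPM in healthy skin and 45.9 to 110 in papillomas without overlap, with a log2 fold change of 1.38 (SE 0.34, edgeR adjusted p = 0.00322), and passed in all 12 settings and 10 fits without 1 library. As shares of tRNA reads 10 anticodon sums were higher and 0 lower, with factors from abundant features or library totals 8 and 3, with features of at least 50 CPM alone 6 and 1, with only the 2 groups compared 5 and 3, and with factors from miRNAs 1 and 11.

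Between cSCC and papillomas few members differed. EdgeR called 3, all lower, where 1.71% and 3.22% of all features were called lower and higher, and 85 had an unadjusted p under 0.05. DESeq2 called 26 lower and 7 higher, library totals 39 lower, and the abundant-feature factors 1 each way. The 3 were chr11.tRNA1442-CysGCA with a log2 fold change of -2.09, chr4.tRNA67-GlyCCC with -1.26 and chr1.tRNA1392-GlyGCC with -1.07. Of the amino acid and anticodon sums edgeR called 0 and 0, with 6 and 10 at an unadjusted p under 0.05, and DESeq2 called 1 and 2. In this comparison 2.24% and 5.98% of the rows of the amino acid table were called lower and higher, and 3.49% and 4.63% of those of the anticodon table. The calls changed in number and direction with single libraries. Without papilloma 6, 32 members and 2 amino acid sums were called, all lower. Without papilloma 4, 12 members were higher and 1 lower, and without papilloma 5, 7 were higher and 5 lower. The replicate block gave 7 higher and 2 lower. The number was 0 without papilloma 1, and 1 without papilloma 3, cSCC 2 or cSCC 4. Without papilloma 1, chr11.tRNA1442-CysGCA was at -1.49 (adjusted p = 0.0655), and without papilloma 3, chr1.tRNA1392-GlyGCC was at -0.65 (adjusted p = 0.346).

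Against hyperplastic skin the amino acid sums called in cSCC and in papillomas were all lower on the main scale, while most of those called as shares of tRNA reads were higher. In cSCC 154 members were lower and 19 higher, where 20.2% and 21.7% of all features were called. Of the amino acid sums edgeR called 13, all lower, where 21.3% and 18.7% of the rows were called lower and higher. Arg led with a log2 fold change of -2.59, followed by Cys (-2.19), Trp (-2.18), Gly (-2.01), Glu (-1.97), Lys (-1.97) and Gln (-1.89). Arg, Gln, Glu, Gly, Leu, SeC(e) and Trp passed in each of the 11 other settings and each fit without 1 library. As shares of tRNA reads only Arg did, at -1.09, while 7 sums were higher and Leu was at 0.0017. Anticodon sums gave 26 lower and 1 higher (Ser-TGA, 1.24), where 19.3% and 21.1% of the rows were called. As shares of tRNA reads 102 members were higher and 26 lower, and 18 anticodon sums were higher and 3 lower. With factors from abundant features the members split into 47 and 93, the amino acid sums into 2 and 10, and the anticodon sums into 3 and 16. With library totals the anticodon sums split into 3 and 18, and the amino acid sums into 2 and 11. Among single genes chr3.tRNA287-GlyCCC (2.80), chr13.tRNA73-ThrTGT (2.02) and chr13.tRNA68-AlaTGC (1.88) rose most. The arginine genes chr13.tRNA953-ArgACG (-2.68), chr13.tRNA948-ArgTCG (-2.55) and chr9.tRNA783-ArgACG (-2.52) fell most.

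In papillomas against hyperplastic skin 86 members were lower and 7 higher, where 12.3% and 16.2% of all features were called. Of the amino acid sums edgeR called 10, all lower, where 18.4% and 12.2% of the rows were called lower and higher. Lysine fell most: hyperplastic libraries held 107357, 114956, 120474, 103492 and 246553 CPM, and papilloma libraries 1, 3, 4, 5 and 6 held 56712, 39851, 23440, 19468 and 10358 CPM. No papilloma reached the lowest hyperplastic library, and the log2 fold change was -2.21 (SE 0.45, edgeR adjusted p = 0.00101). Lys passed in all 12 settings, at -0.93 as a share of tRNA reads. Among anticodon sums edgeR called 17, all lower, where 13.4% and 17.5% of the rows were called lower and higher. Without hyperplastic 8 the members called fell from 93 to 47 and the amino acid sums from 10 to 6, and without papilloma 4 or papilloma 6 the sums were 6 and 5. As shares of tRNA reads 115 members were higher and 20 lower, and of the sums 7 were higher and 1 lower by amino acid and 19 and 1 by anticodon. With library totals the splits were 21 and 35 for members, 1 and 4 for amino acid sums and 4 and 9 for anticodon sums, and with factors from abundant features 17 and 64, 1 and 5, and 2 and 10. The gene chr9.tRNA1035-LysCTT fell most (-2.51, from 2383 to 419 CPM on average), and chr3.tRNA287-GlyCCC (2.66) and chr3.tRNA752-GlyCCC (1.89) rose most.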

How the data were processed

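The deposited table holds raw read counts per small RNA feature for 20 libraries, per the file headers 1 column per library. Total RNA was extracted with the miRNeasy kit, and small RNA libraries were size-selected and sequenced on SOLiD, per the labels. The genome build was mm9, per the submitters' processing notes. Which aligner and counting tool were used, and how reads matching several genes were treated, is not given in the sources used here. Coordinates are those of the deposited table.

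Members and lists were chosen with earlier results of these data known. Member rows were summed per amino acid and per anticodon, in 2 further tables with the other rows kept. Each table was filtered (filterByExpr, minimum count 10, minimum total 15), scaled by TMM and tested with edgeR 4.0.16 (quasi-likelihood F test, R 4.3.3, limma 3.58.1), with a term per group over all 20 libraries and Benjamini-Hochberg adjustment over the whole table. TMM factors differ between the tables, so a sum's fold change comes from its own table.

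Named were every amino acid sum, the 10 features and the 10 anticodon sums with most reads, the fragment-source list, the 3 features either side of the member limit, and per comparison the 3 largest called changes each way, for features with a mean count of at least 50. A simulation of the cSCC and healthy comparison covered 1522 features. Of 100 features changed by a log2 of 2, 94 were tested and edgeR called 81 in the right direction. Of 100 features changed by 1, 99 were tested and 29 were so called. Of 1254 unchanged features edgeR called 3. The rate of false calls under a shift of the whole tRNA class was not tested. Alternatives were other scalings, other filters, DESeq2 1.42.0, a replicate block, only the 2 groups compared, other sums and each library left out. Scaling by the nuclear tRNA total was added after seeing the data. No tRNA sequences were used here.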

Additional observations from a re-analysis of the deposited data

Results flagged for a closer look

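Of 264 groups of 5 libraries tested, 14 (5.3%) had 1 library far from the other 4 by Dixon's criterion, where chance flags about 1 in 20. Hyperplastic 8 was the library in 6 of them. It held 246553 CPM of lysine tRNAs against 103492 to 120474 in the others, 4858 CPM of isoleucine against 1935 to 2402, 171607 CPM of Gly-GCC against 72879 to 100404, and 176496 CPM of Lys-CTT against 59684 to 78399. Among single genes it held 26985 CPM of chr12.tRNA790-LysCTT against 9335 to 14166 and 21834 CPM of chr17.tRNA1000-LysCTT against 7479 to 10230. These CPM depend on the scale, since hyperplastic 8 had the lowest TMM factor (0.714 for features and 0.59 with amino acid sums). With library totals alone it stood less far apart. It then held 145424 CPM of lysine tRNAs against 68658 to 106269, and 112928 CPM of Gly-GCC against 66083 to 95950.

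Healthy 4 stood apart with 22.5 CPM of phenylalanine tRNAs against 9.93 to 12.6, and with 56.0 CPM of chr13.tRNA83-LysTTT against 13.6 to 23.1. The cSCC library 3 held 4553 CPM of chr1.tRNA704-GlyGCC against 1739 to 2077 and 252 CPM of chr4.tRNA67-GlyCCC against 99.0 to 137. Papilloma 1 held 3774 CPM of SeC(e) against 737 to 1537, and papilloma 4 held 76.6 CPM of chr3.tRNA287-GlyCCC against 30.5 to 34.9. Hyperplastic 7 held 20.6 CPM of chr3.tRNA752-GlyCCC against 11.4 to 13.1. Hyperplastic 2 held 163 CPM of chr13.tRNA948-ArgTCG against 14.4 to 56.9.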

How the results depend on the processing

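For counts of called members, hyperplastic against healthy skin (4) went to 2 with miRNA scaling or abundant-feature factors, 10 with library totals, 1 with features of at least 50 CPM alone, 14 with DESeq2, and 0 as shares of tRNA reads or with only the 2 groups compared. Papilloma against healthy skin (68) went to 19 with features of at least 50 CPM alone and 115 as shares of tRNA reads, cSCC against healthy skin (125) to 55, and cSCC against hyperplastic skin (173) to 80, both with features of at least 50 CPM alone, a setting in which 163 members are tested. The count for cSCC against papilloma (3) went to 1 with miRNA scaling, no filter, shares of tRNA reads or only the 2 groups, 39 with library totals and 33 with DESeq2, and that for papilloma against hyperplastic skin (93) to 56 with library totals. Leaving out 1 library gave 0 to 11, 44 to 87, 89 to 122, 0 to 32, 47 to 106 and 143 to 173 members for hyperplastic, papilloma and cSCC against healthy skin, cSCC against papilloma, and papilloma and cSCC against hyperplastic skin. For amino acid sums it gave 0 to 0, 1 to 8, 6 to 12, 0 to 2, 5 to 12 and 10 to 14 in the same order.

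For amino acid sums, papilloma against healthy skin (8) went to 4 with DESeq2 size factors, no filter or shares of tRNA reads, 5 with DESeq2, 3 with abundant-feature factors, library totals or sums over all tRNA entries, and 2 with features of at least 50 CPM alone, only the 2 groups or the top gene in place of the sum. The count for cSCC against papilloma (0) went to 2 with library totals and 1 with DESeq2 or sums over all entries. That for papilloma against hyperplastic skin (10) went to 6 with abundant-feature factors, 5 with library totals, 3 with features of at least 50 CPM alone and 4 with only the 2 groups, and that for cSCC against hyperplastic skin (13) to 8 as shares of tRNA reads. The cause of these moves was not tested. Per 100 mature miRNA counts the tRNA shares were 43.9, 63.1, 38.2 and 26.7 for healthy, hyperplastic, papilloma and cSCC libraries. Leaving out 1 library gave shares of 27.5% to 30.8%, 35.0% to 39.2%, 23.8% to 29.0% and 19.6% to 21.0%.

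Whether samples with the same replicate number belong together is not given by the labels. Of 17 pairs with the same number 3 had a correlation of deviations over 0.1 (median -0.006 over all features). Of 19 libraries 3 correlated best with their own number. Such correlations cannot decide whether same-numbered samples share a mouse. With the replicate block, members called were 35 for papilloma and 72 for cSCC against healthy skin, 9 for cSCC against papilloma, and 24 for papilloma and 88 for cSCC against hyperplastic skin. Amino acid sums called with the block were 5 for papilloma against healthy skin, and 4 for papilloma and 7 for cSCC against hyperplastic skin.

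Reversed log2 fold changes in cSCC against healthy skin, as shares of tRNA reads, were 0.33 for Ala, 0.67 for Asn, 0.79 for Asp, 0.12 for Gln, 0.43 for Ile, 0.064 for Lys, 0.37 for Phe, 0.52 for Pro and 0.84 for Val. With abundant-feature factors, and to the same digits with features of at least 50 CPM alone, they were 0.39 for Asn, 0.49 for Asp, 0.0052 for Ile, 0.18 for Pro and 0.51 for Val, and with library totals 0.19 for Asn, 0.29 for Asp and 0.32 for Val. With the top gene in place of the sum they were 0.046 for Asn, -0.30 for Thr and -0.088 for Tyr. With 1 library left out, Asn ranged from -0.44 to 0.0052 (without cSCC 6), Asp from -0.52 to 0.13 (without cSCC 2), and Val from -0.37 to 0.093 (without cSCC 6). Tyr (0.03) was at -0.0067 with miRNA scaling, -0.029 with the replicate block, and from -0.15 (without cSCC 3) to 0.31 with 1 library left out. The gene chr1.tRNA704-GlyGCC (-0.04) went to 0.38 with abundant-feature factors or features of at least 50 CPM alone, 0.14 with library totals, 0.60 as a share of tRNA reads, 0.0036 with only the 2 groups, and from -0.53 (without cSCC 3) to 0.016 (without cSCC 6) with 1 library left out. The gene chr13.tRNA91-ValCAC (-0.29) went to 0.13 with abundant-feature factors or features of at least 50 CPM alone and to 0.45 as a share of tRNA reads. In papilloma against healthy skin Val went to 5.91e-05 with library totals, 0.29 as a share of tRNA reads and 0.39 with the top gene, Asn to 0.27 as a share and Thr to -0.11 with the top gene. As shares of tRNA reads, cSCC against hyperplastic skin gave 0.45 for Ala, 0.0017 for Leu, 0.43 for Phe and 0.42 for Ala-AGC. Papilloma against hyperplastic skin gave 0.048 for Gly, 0.32 for His, 0.029 for Met, 0.25 for SeC(e), 0.054 for Gly-GCC, 0.32 for His-GTG and 0.37 for Val-CAC.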
